A study of Arabidopsis thaliana with 24 samples.

Results

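Loss of the transcription factor gene GTL1 in expanding leaves of well-watered Arabidopsis thaliana plants was examined across genes, by setting the 3 gtl1-4 libraries of that leaf age and water supply against the 3 Col-0 libraries. These are 6 of the 24 libraries of the series. Genes were kept when their mean was at least 10 over the 12 libraries of expanding leaves, which left 16522 of 37336 listed genes. The plants of the gtl1-4 group belong to 1 knockout line in the Col-0 background, and Col-0 is the common reference accession with GTL1 intact. With 1 line, an effect of GTL1 loss and another difference between the lines cannot be told apart. Both groups were grown with an 8 h photoperiod and a medium water content of 65 to 100%, and their leaves were taken at 14 to 15 days after emergence. Each library was made from messenger RNA of a pool of 10 plants. The series also holds expanding leaves under water deficit, at 30% of the medium water content, and emerging leaves at 1 day under both supplies. Its title asks about anthocyanin and polyamine biosynthesis under repression of GTL1.

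GTL1 is a trihelix protein that binds short GT-rich promoter elements, among them the GT-3 box GGTAAA, and acts mostly as a repressor. Its described targets are SDD1, a protease gene that limits the number of stomata, and CCS52A1, an activator of the endocycle in which cells copy DNA without dividing. Anthocyanins are vacuolar pigments made from phenylalanine through the flavonoid pathway, and leaves accumulate them under drought, cold and strong light. Putrescine, the first polyamine, is made in Arabidopsis from arginine by arginine decarboxylase and is then extended to spermidine and spermine.

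GTL1 (AT1G33240) itself had a normalized count of 257, 322 and 236 in the gtl1-4 libraries, against 778, 739 and 951 in the Col-0 libraries. Every gtl1-4 library lay below every Col-0 library, and reads of the gene remained in gtl1-4. The log2 fold change was -1.60 (SE 0.16, limma adjusted p 8.00e-05), with gtl1-4 over Col-0 here and throughout. Its call was kept in all 6 fits without 1 library, with a highest adjusted p of 0.00121. With 3 libraries in each group, the exact permutation test (two-sided) returned p = 0.1, its smallest possible value. Among the other tested genes within 50 places of GTL1 on chromosome 1, only AT1G33170 was called (0.91, adjusted p 0.00981). Over all tested genes 1.34% were called. The adjacent genes AT1G33230 and AT1G33250 had log2 fold changes of -0.28 and 0.70 and were not called.

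Across all tested genes, 222 differed between gtl1-4 and Col-0 at a limma adjusted p under 0.05, which is 1.34%. Higher in gtl1-4 were 117 genes (0.708% of those tested, median log2 fold change 1.17) and lower were 105 (0.636%, median -0.97). The smallest called change was 0.43, and the median standard error of a tested gene was 0.22. The median over all tested genes was 0.01, and 50.9% of them were above 0. Scaling the libraries to nuclear genes alone shifted that median to -0.06 and turned the split to 84 higher and 140 lower. The groups did not overlap in 1453 genes that were higher (8.79%) and 1524 that were lower (9.22%), and among the called genes this held for 116 and 104. By limma, 1241 higher and 1189 lower genes of the 16522 had an unadjusted p under 0.05, the background for the list counts below.

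The depth of the 6 libraries was 14.9 to 27.1 M counts, of which 4.88 to 10.0 M fell on nuclear genes. Chloroplast genes held 67.5 ± 5.12% of counts in gtl1-4 and 69.7 ± 1.23% in Col-0 (SD, n = 3 each). Col-0 replicate 3 stood apart, with a root mean square log2 distance of 0.756 from the other two Col-0 libraries, where the other 5 libraries lay at 0.423 to 0.586. The shoot meristem genes STM, KNAT1 and CLV3 were listed at 0 in all 6 libraries. Nuclear photosynthesis genes summed to 1007100 to 1257190 in gtl1-4 and 829313 to 1094680 in Col-0. The samples are whole leaves, so fewer cells of a type and less RNA per cell cannot be told apart.

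**Figure D1:**
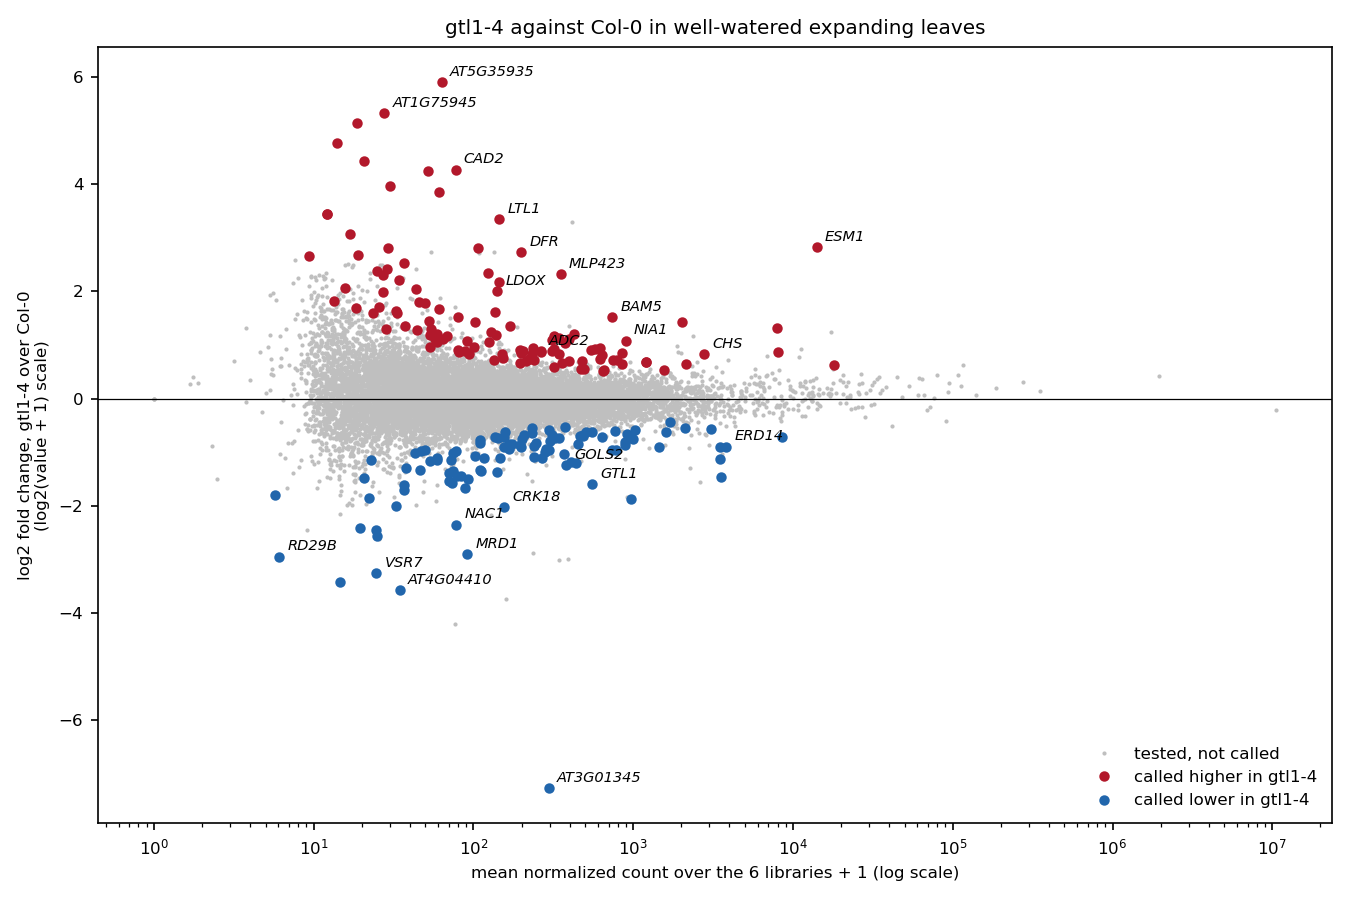
Each point is 1 tested gene, with the mean normalized count over the 6 libraries plus 1 on a log horizontal axis and the log2 fold change of gtl1-4 over Col-0 on the vertical axis. The 117 genes called higher are red, the 105 called lower are blue, and ESM1 combines a high level with a difference of 2.82.

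The late anthocyanin genes were the clearest named pathway among the higher genes. These are the enzymes and carriers that turn dihydroflavonols into coloured, decorated and stored pigment. Of 12 tested members 4 were higher and 0 lower, 10 had a positive log2 fold change, and the list median was 1.49 against 0.01 over all genes. The groups did not overlap in 8 members that were higher and 1 that was lower. Without Col-0 replicate 3 the count was also 4, with a median of 1.18.

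DFR (AT5G42800) encodes dihydroflavonol reductase, the first enzyme committed to anthocyanins. It had normalized counts of 314, 356 and 352 in gtl1-4, against 93.1, 45.3 and 29.6 in Col-0. The gtl1-4 libraries were close together and all above the highest Col-0 library, while the Col-0 libraries were spread widely. The log2 fold change was 2.74 (SE 0.33, adjusted p 0.000569), and the call was kept in all 6 fits without 1 library.

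LDOX (AT4G22880), the anthocyanidin synthase gene, had 211, 172 and 274 in gtl1-4, against 97.7, 31.0 and 47.9 in Col-0. The groups did not overlap, and the log2 fold change was 2.01 (SE 0.37, adjusted p 0.0127). Without gtl1-4 replicate 3 the adjusted p of LDOX was 0.0715. GSTF12 (AT5G17220), a glutathione transferase that carries pigment to the vacuole, had 174, 220 and 195 in gtl1-4, against 86.2, 50.0 and 12.2 in Col-0. The lowest of these Col-0 values is that of replicate 3, the library that stood apart. The log2 fold change of GSTF12 was 2.34 (SE 0.44, adjusted p 0.0157), and the call was lost without gtl1-4 replicate 2 or 3 (adjusted p up to 0.0654).

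AT5MAT (AT3G29590), a malonyltransferase that decorates the pigment, had 38.4, 32.5 and 42.8 in gtl1-4, against 9.23, 15.5 and 8.72 in Col-0. The groups did not overlap, with a log2 fold change of 1.71 (SE 0.31, adjusted p 0.0123), and the call was lost without gtl1-4 replicate 3 (adjusted p 0.0654). TT7, the flavonoid 3'-hydroxylase gene, had 38.4, 46.6 and 44.1 in gtl1-4, against 18.5, 22.6 and 12.2 in Col-0, without a call (1.27, adjusted p 0.128). The glycosyltransferase genes UF3GT and AT4G14090 were also not called (2.73, adjusted p 0.179, and 1.26, adjusted p 0.0948). UF3GT was listed at 0 in Col-0 replicate 3. The other end of the list held the decorating enzymes SCPL10 and BGLU10, at -0.05 and -0.32, neither of them called.

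Earlier steps, from phenylalanine to dihydroflavonols, showed smaller differences. Of 17 tested members 2 were higher and 0 lower, with a median of 0.36 and 16 positive. CHS (AT5G13930), chalcone synthase at the entry to the flavonoids, had 3559, 3957 and 3167 in gtl1-4, against 1846, 2376 and 1792 in Col-0 (0.83, SE 0.20, adjusted p 0.0498). F3H (AT3G51240), flavanone 3-hydroxylase, had 315, 285 and 325 in gtl1-4, against 157, 200 and 126 in Col-0 (0.95, SE 0.22, adjusted p 0.0414). Neither gene's groups overlapped, but each call was kept in only 1 of 6 fits without 1 library. No member was called without Col-0 replicate 3, nor after scaling to nuclear genes.

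The MYB and bHLH activators of the pathway were mostly too low to test, with 4 of 12 kept. Limma called 0 of these 4, with 2 at an unadjusted p under 0.05 and 0 called by limma-voom. Of the 4, 3 were positive with a median of 0.84, or 2 with a median of 0.50 without Col-0 replicate 3. MYB75, the main anthocyanin activator of Arabidopsis shoots, had 127, 113 and 120 in gtl1-4, against 137, 135 and 61.9 in Col-0. Its groups overlapped, and the log2 fold change of 0.20 became -0.18 without Col-0 replicate 3. TT8, the bHLH partner, had 8.77, 4.23 and 8.69 in gtl1-4, against 3.08, 1.19 and 0 in Col-0, without a call (1.93, adjusted p 0.147). MYB90 was listed at 0. The list of 7 pathway repressors also had 0 calls by limma and by limma-voom, 0 at an unadjusted p under 0.05 and a median of -0.14. HY5, a light-signalling factor among the activators, stood at 1.48 (adjusted p 0.169), and LBD38, a repressor, at -0.50 (adjusted p 0.473).

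**Figure D2:**
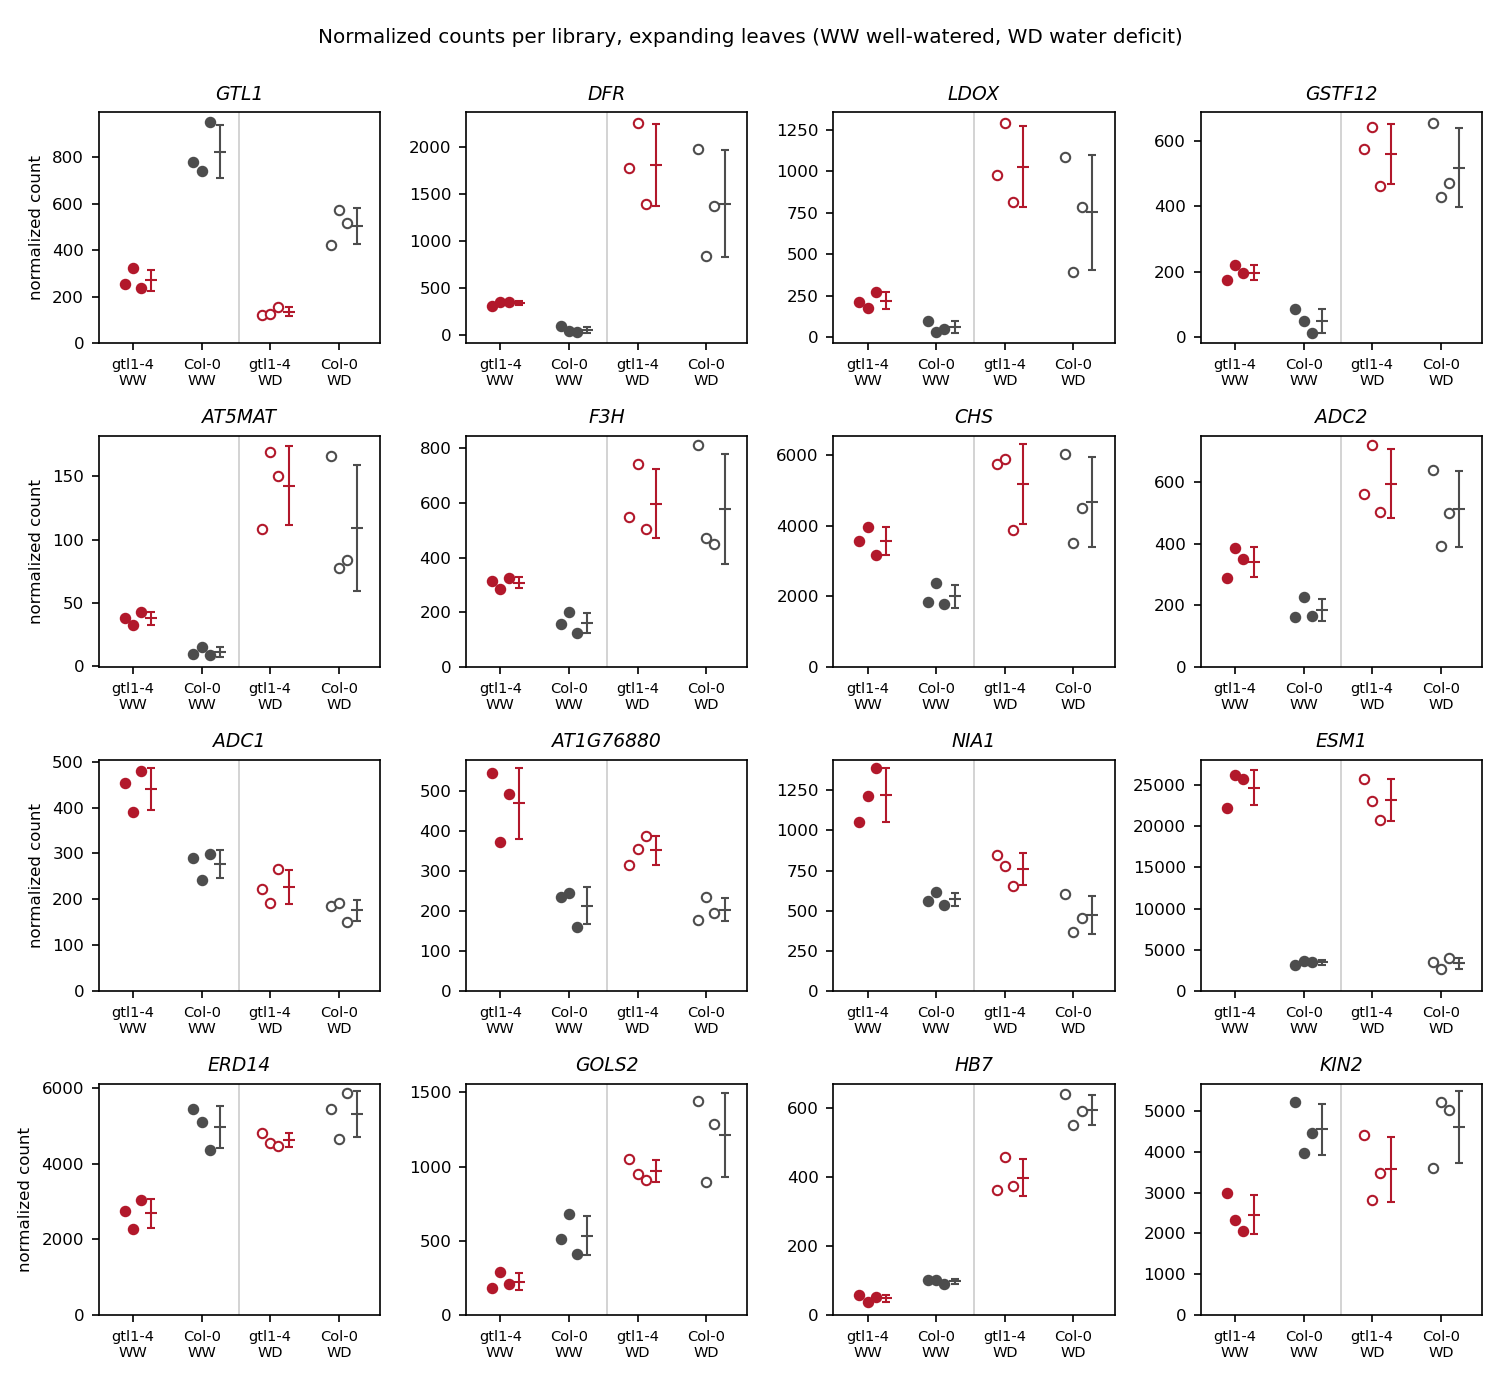
Normalized counts on the vertical axes for 16 genes in each gtl1-4 and Col-0 library of expanding leaves, well-watered (filled, WW) and under water deficit (open, WD), with the mean and SD of 3 libraries beside the points. When well-watered, DFR had 314 to 356 in gtl1-4 and 29.6 to 93.1 in Col-0, while GOLS2 had 180 to 291 in gtl1-4 and 414 to 678 in Col-0.

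Both arginine decarboxylase genes, the start of putrescine synthesis, were higher in gtl1-4. ADC2 (AT4G34710), the stress-responsive copy, had 288, 385 and 351 in gtl1-4, against 164, 226 and 165 in Col-0. ADC1 (AT2G16500) had 454, 391 and 480 in gtl1-4, against 289, 243 and 300 in Col-0. The groups overlapped in neither gene. The log2 fold changes were 0.89 for ADC2 (SE 0.19, adjusted p 0.0327) and 0.67 for ADC1 (SE 0.16, adjusted p 0.0499), and ADC1 lost its call in every fit without 1 library while ADC2 kept it in 2 of 6.

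These were the 2 higher members among 14 tested genes of putrescine, spermidine and spermine synthesis, with 0 lower, 11 positive and a median of 0.21. EMB1873, the agmatine iminohydrolase gene that acts after arginine decarboxylase, had 155, 174 and 138 in gtl1-4, against 99.2, 100.0 and 93.3 in Col-0, and did not pass (0.66, adjusted p 0.0511). SAMDC, which supplies the aminopropyl donor, stood at 0.44 (adjusted p 0.12). The spermidine synthase genes SPDS1 and SPDS2 stood at 0.13 and -0.03, and the spermine synthase gene SPMS at -0.43 (adjusted p 0.205), none of them called. Without Col-0 replicate 3 the list had 0 calls and a median of 0.19.

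Limma called 0 of 9 polyamine and copper amine oxidase genes, which break polyamines down (2 at an unadjusted p under 0.05, 0 by limma-voom). PAO2, a polyamine oxidase gene, came nearest (0.33, adjusted p 0.269). The list median was 0.19, and -0.02 without Col-0 replicate 3. Likewise 0 of 8 genes of the S-adenosylmethionine cycle were called by limma or limma-voom, with 1 at an unadjusted p under 0.05 (SAM2, 0.32, adjusted p 0.292) and a median of -0.06.

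Dehydration and abscisic acid (ABA) response genes were lower in gtl1-4 where they differed. Of 38 tested members 7 were lower and 0 higher, 12 had a positive log2 fold change, and the median was -0.24. The groups did not overlap in 11 members that were lower and 1 that was higher. Summed over the list, levels were 20398 to 24700 in gtl1-4 and 26316 to 30400 in Col-0, without overlap. This sum weighs abundant members most, among them the called genes ERD14 and KIN2, so it does not show lowering across the list. Without Col-0 replicate 3 there were 4 lower members and a median of -0.34.

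RD29B (AT5G52300), a classic desiccation-response gene, was listed at 0, 1.41 and 0 in gtl1-4, against 10.0, 13.1 and 6.10 in Col-0. These levels are low, and the fitted change of -2.95 (SE 0.51, adjusted p 0.00895) depends on the pseudocount. GOLS2 (AT1G56600), a galactinol synthase that makes protective raffinose-family sugars, had 180, 291 and 206 in gtl1-4, against 515, 678 and 414 in Col-0. Its groups did not overlap, with a log2 fold change of -1.24 (SE 0.21, adjusted p 0.00752).

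HB7 (AT2G46680), an ABA-induced homeodomain factor, had 57.0, 36.7 and 52.1 in gtl1-4, against 101, 102 and 88.9 in Col-0 (-1.01, SE 0.17, adjusted p 0.00865). ERD14 (AT1G76180), a dehydrin that protects proteins and membranes, had 2741, 2277 and 3028 in gtl1-4, against 5449, 5090 and 4368 in Col-0 (-0.89, SE 0.14, adjusted p 0.00403). In both genes every gtl1-4 library was below every Col-0 library. RD29B, GOLS2, HB7 and ERD14 kept their calls in all 6 fits without 1 library.

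The remaining calls were less stable. KIN2 (AT5G15970), a cold- and ABA-induced gene, had 2982, 2320 and 2068 in gtl1-4, against 5219, 3970 and 4447 in Col-0 (-0.90, adjusted p 0.0265, kept in 2 of 6 such fits). AFP3 (AT3G29575), whose family dampens ABA signalling, had 23.0, 28.2 and 43.4 in gtl1-4, against 70.0, 56.0 and 56.6 in Col-0 (-0.97, adjusted p 0.0479, kept in 1). NCED3 (AT3G14440), the key enzyme of drought-induced ABA synthesis, had 116, 113 and 89.4 in gtl1-4, against 150, 193 and 186 in Col-0 (-0.73, adjusted p 0.0499, kept in 0). The groups of each of these genes stayed apart. RD29A and KIN1, near relatives in the list, stood at -0.74 (adjusted p 0.208) and -0.86 (adjusted p 0.0715).

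Outside the list, several other hormone genes differed, and these were picked after their values were seen. PYL4, an ABA receptor gene, had 83.4, 70.6 and 73.8 in gtl1-4, against 28.5, 32.2 and 30.5 in Col-0 (1.29, adjusted p 0.0297), a call lost in all 6 fits without 1 library. HB6, a negative regulator of ABA responses, was lower (-0.59, adjusted p 0.0399) and lost its call in all 6 as well. Lower too were RR5 and ARR9, type-A response regulators that damp cytokinin signalling, at -0.84 (adjusted p 0.0147) and -0.62 (adjusted p 0.0165). The calls of RR5 and ARR9 were kept in 3 and 2 of 6 fits without 1 library. Among 17 tested response regulator genes these were the 2 lower, with 0 higher, 7 positive and a median of -0.09. Over all tested genes 0.636% were lower. RR5 had 117, 119 and 132 in gtl1-4, against 265, 195 and 206 in Col-0. SHY2, an auxin-response repressor, was lower at -0.85 (adjusted p 0.0123, kept in 4 of 6 such fits), and so was ICS2, a minor isochorismate synthase of the salicylic acid route, at -1.14 (adjusted p 0.0103, kept in all 6).

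A nitrate reductase gene and a nitrate transporter gene were higher. Of 6 tested nitrogen assimilation genes 2 were higher and 0 lower, all 6 were positive, and the median was 0.43. NIA1 (AT1G77760), a nitrate reductase, had 1052, 1213 and 1388 in gtl1-4, against 558, 618 and 536 in Col-0 (1.09, SE 0.17, adjusted p 0.00403). NRT1.1 (AT1G12110), a nitrate transporter and sensor, had 304, 481 and 426 in gtl1-4, against 179, 245 and 223 in Col-0 (0.89, adjusted p 0.0171). Neither gene's groups overlapped, NIA1 was kept in all 6 fits without 1 library and NRT1.1 in 3. The second nitrate reductase NIA2 stood at 0.24 and was not called.

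Among 30 nuclear photosynthesis genes 1 was higher and 0 lower, with 28 positive and a median of 0.24, which was 0.04 after quantile normalization. The called gene was LHCB4.3, a minor antenna protein of photosystem II, with 563, 721 and 490 in gtl1-4, against 212, 270 and 279 in Col-0 (1.21, adjusted p 0.0143). Its groups did not overlap, and the call was lost without gtl1-4 replicate 2 or Col-0 replicate 1 (adjusted p up to 0.0701). In 13 cell wall expansion genes 1 was higher, EXPA1, an expansin that loosens walls (0.64, adjusted p 0.0476, lost in all 6 fits without 1 library). Of 5 vascular marker genes 1 was higher, APL, the phloem identity factor (0.84, adjusted p 0.0262, lost in all 6). The summed level of the vascular markers was 1227 to 2063 in gtl1-4 and 965 to 1350 in Col-0, and the part of vascular RNA in any other result was not tested.

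The described targets of GTL1 gave no call. SDD1 had 5.48, 4.23 and 6.21 in gtl1-4, against 1.54, 1.19 and 0 in Col-0, and fell below the filter. CCS52A1 had 70.2, 62.1 and 72.6 in gtl1-4, against 58.5, 76.2 and 125.5 in Col-0, with overlapping groups (-0.27, adjusted p 0.644, and 0.029 without Col-0 replicate 3). Limma called 0 of 7 stomatal lineage genes, with 3 at an unadjusted p under 0.05 and a median of 0.38, and 0 of 12 endocycle genes, with 1 and a median of -0.04. It also called 0 of 9 guard cell genes (1 at an unadjusted p under 0.05), 0 of 6 trichome genes (1), 0 of 10 DNA replication genes (3) and 0 of 5 mitosis genes (0). None of these 6 lists had a call by limma-voom. The stomatal lineage list has 15 members and the mitosis list 12, of which only 7 and 5 passed the filter. All 7 tested stomatal lineage, 10 DNA replication (median 0.37) and 5 tested mitosis genes (median 0.58) were positive, against 50.9% of all tested genes. Positive too were 6 of 9 guard cell genes (median 0.39), 4 of 6 trichome genes (median 0.08) and 6 of 12 endocycle genes. Without Col-0 replicate 3 the stomatal lineage, DNA replication and mitosis medians were 0.38, 0.30 and 0.63. The members with the lowest p were the receptor-like gene TMM (1.91, adjusted p 0.195), the potassium channel gene KAT1 (0.53, adjusted p 0.231), the trichome factor gene GL2 (-1.23, adjusted p 0.244), the endocycle inhibitor gene DEL1 (1.97, adjusted p 0.268), the helicase subunit gene MCM3 (0.53, adjusted p 0.261) and the cytokinesis gene KN (1.33, adjusted p 0.439). Guard cell markers summed to 19407 to 27773 in gtl1-4 and 18062 to 18628 in Col-0, and trichome markers to 186 to 212 in gtl1-4 and 135 to 233 in Col-0.

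A relative of GTL1 was higher. AT1G76880, annotated as a duplicated homeodomain-like protein and listed with the trihelix factors, had 543, 371 and 491 in gtl1-4, against 235, 245 and 159 in Col-0. The groups did not overlap, and the log2 fold change was 1.14 (SE 0.19, adjusted p 0.00700), kept in all 6 fits without 1 library. An antisense gene overlaps it, and without stated strand use their reads cannot be told apart. The trihelix genes GT2 and GT-1 stood at 0.41 and -0.32, not called.

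**Figure D3:**
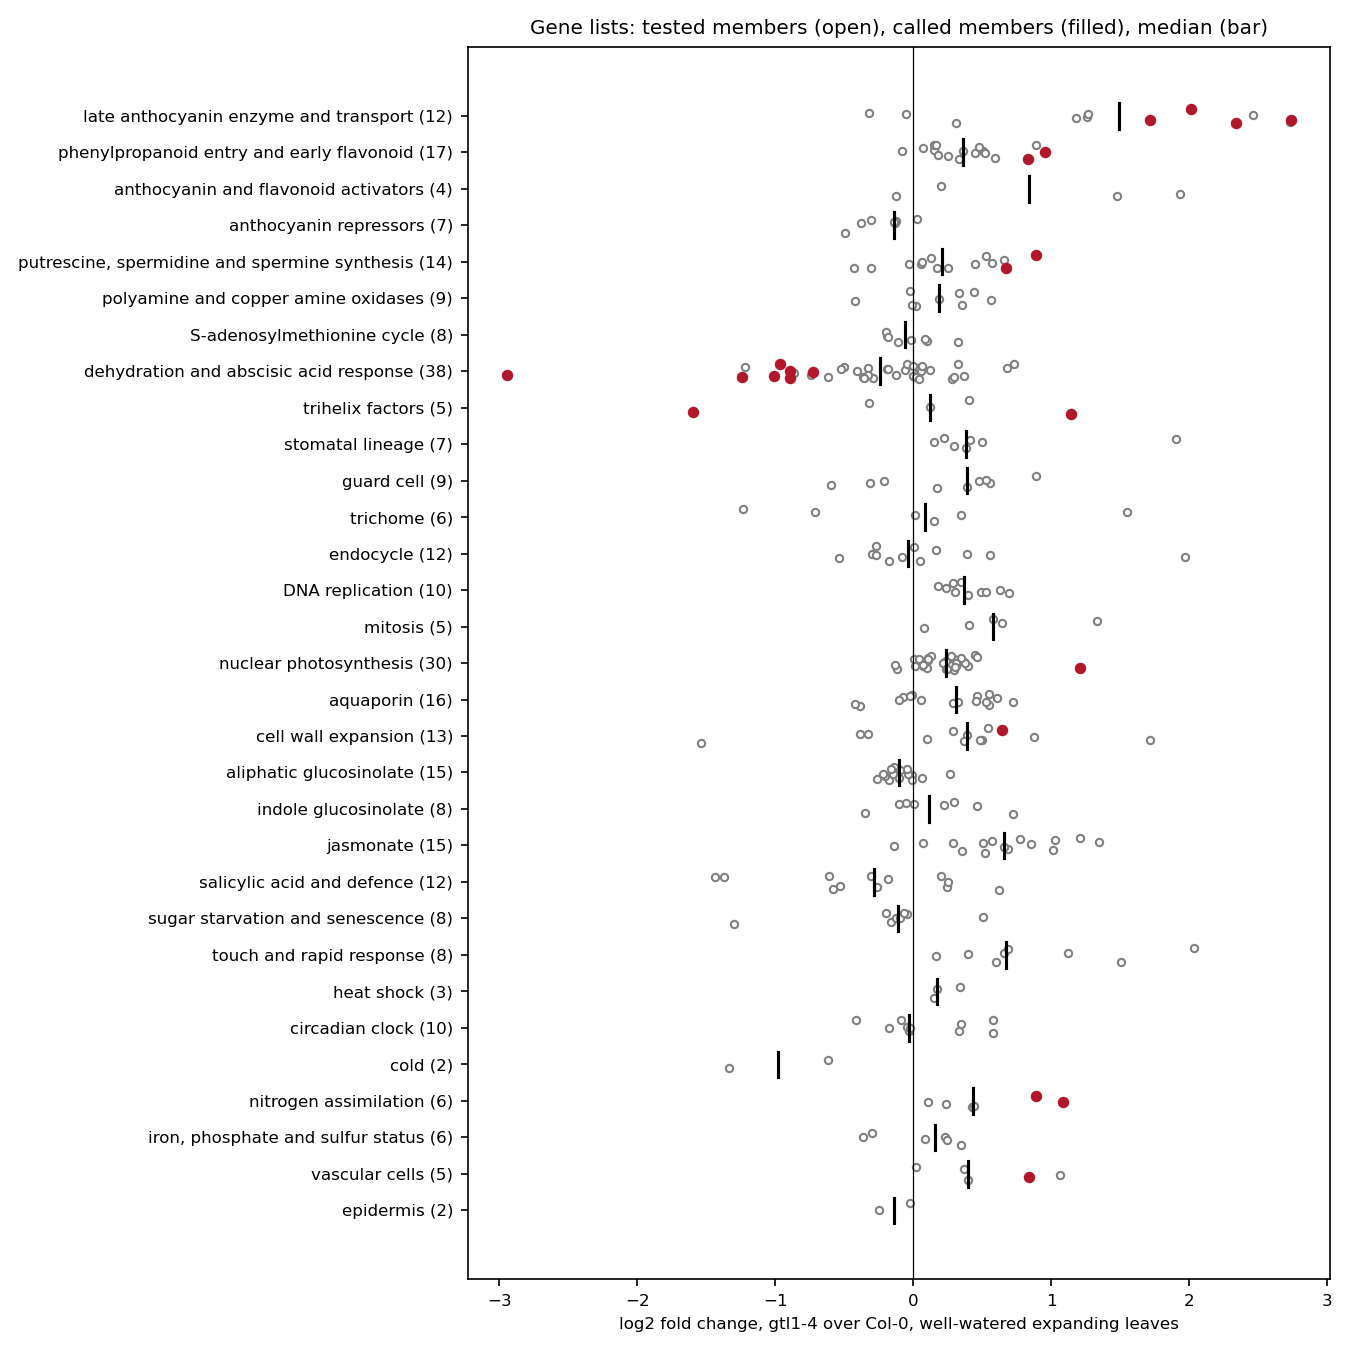
Log2 fold changes of gtl1-4 over Col-0 for the tested members of the gene lists, 1 point per gene, with called genes filled and the list median marked. Late anthocyanin genes centre on 1.49, dehydration and ABA response genes on -0.24, and all tested genes on 0.01.

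Several other lists leaned one way without passing. Limma called 0 of 15 jasmonate genes (6 at an unadjusted p under 0.05), of which 14 were positive, with a median of 0.66, or 0.40 without Col-0 replicate 3. LOX2, the chloroplast lipoxygenase of jasmonate synthesis, came nearest (0.78, adjusted p 0.0972). It called 0 of 8 touch and rapid response genes (0 at an unadjusted p under 0.05, median 0.67) and 0 of 16 aquaporin genes (5, median 0.31). Nearest among these were CML38, a calmodulin-like gene (2.03, adjusted p 0.427), and PIP1;4, a plasma membrane aquaporin gene (0.53, adjusted p 0.0938). In 12 salicylic acid and defence genes limma called 0 (3, median -0.28), and limma-voom called 1 lower. SARD1, a regulator of salicylic acid synthesis, stood at -1.37 (adjusted p 0.112). Further lists with 0 calls by both were aliphatic and indole glucosinolate synthesis, starvation and senescence, heat shock, clock, cold, epidermis, and iron, phosphate and sulfur status, with 0, 2, 1, 0, 1, 2, 0 and 0 genes at an unadjusted p under 0.05. In these the lowest p belonged to AT2G31790 (0.26), AT2G44490 (-0.35), AT4G35770 (-1.30), HSP90.1 (0.34), CCA1 (0.35), CBF2 (-1.34), AT2G26250 (-0.25) and FER1 (0.35), with adjusted p of 0.168 to 0.574.

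The largest differences were in single genes of other kinds. ESM1 (AT3G14210), a lipase-like protein that steers glucosinolate breakdown towards isothiocyanates, had 22187, 26107 and 25663 in gtl1-4, against 3198, 3694 and 3544 in Col-0. The gap between the groups was larger than the spread within either, with a log2 fold change of 2.82 (SE 0.16, adjusted p 9.17e-08). MLP423, a major latex protein-like gene, had 546, 587 and 617 in gtl1-4, against 142, 102 and 105 in Col-0 (2.33, SE 0.14, adjusted p 1.60e-07). LTL1, a lipase linked to lithium and salt tolerance, had 211, 295 and 286 in gtl1-4, against 21.5, 26.2 and 27 in Col-0 (3.34, adjusted p 1.42e-05).

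These 3 genes kept their calls in every fit without 1 library. CAD2 and CAD3, 2 cinnamyl alcohol dehydrogenase homologs, were higher by 4.27 and 3.85. CAD2 had 170, 132 and 135 in gtl1-4, against 10.0, 5.20 and 5.23 in Col-0. Because the copies are near-identical, the split of reads between them is uncertain. AT5G35935 had 127, 119 and 123 in gtl1-4, against 3.08, 1.19 and 0 in Col-0 (5.90, adjusted p 1.18e-05). AT1G75945 had 55.9, 35.3 and 67.0 in gtl1-4, against 0, 1.19 and 0 in Col-0 (5.32, adjusted p 0.000569).

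AT5G35935 and AT1G75945 were thus close to unread in Col-0, so their fitted changes depend on the pseudocount. AT2G23900 had 50.5, 28.2 and 27.9 in gtl1-4 and was listed at 0 in all 3 Col-0 libraries. AGL38 had 27.4, 26.8 and 24.2 in gtl1-4 and was listed at 0 in Col-0 too. PHE1, a MADS-box gene known from seed development and a near-identical copy of AGL38, had 58.1, 53.6 and 37.9 in gtl1-4, against 10.0, 3.57 and 6.10 in Col-0 (2.82, adjusted p 0.00403). The division of reads between these copies is uncertain.

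Other large rises were COW1, a phosphatidylinositol transfer protein of root hairs (3.96, adjusted p 0.00700), and ABCA7, an ABC transporter (2.52, adjusted p 0.00403), both kept in all 6 fits without 1 library. AT1G18020, one of several near-identical genes, was higher by 4.25 (adjusted p 0.0277) in 1 of 6 such fits. AT5G45670, another GDSL lipase gene, was higher by 2.80 (adjusted p 0.0228) in 2 of 6. BAM5, a beta-amylase, was chosen after its values were seen. It had 897, 1048 and 1332 in gtl1-4, against 319, 504 and 323 in Col-0 (1.53, adjusted p 0.0305, kept in 1 of 6).

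Of the genes that fell, AT3G01345 was the furthest. It was listed at 0 in gtl1-4 replicates 1 and 3 and at 50.8 in replicate 2, against 520, 588 and 608 in Col-0 (-7.26, adjusted p 0.00176). MRD1 had 23.0, 21.2 and 16.8 in gtl1-4, against 159, 204 and 119 in Col-0 (-2.90, adjusted p 2.45e-05). NAC1, an auxin-responsive factor of lateral root formation, had 31.8, 26.8 and 16.1 in gtl1-4, against 115, 107 and 162 in Col-0 (-2.35, adjusted p 0.000569).

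The groups of these 3 genes did not overlap. CRK18, a cysteine-rich receptor-like kinase, had 53.7, 102 and 36.6 in gtl1-4, against 192, 245 and 295 in Col-0 (-2.02, adjusted p 0.00242). VSR7, a vacuolar sorting receptor, had 1.1, 7.06 and 4.34 in gtl1-4, against 36.9, 58.4 and 34.0 in Col-0 (-3.26, adjusted p 0.00824). AT4G04410, AT4G16745, AT3G30122, PP2-A13, AtHB23 and ZIFL2 were lower at -3.57, -2.57, -2.44, -1.66, -1.71 and -1.86. Of these 6, AtHB23 and ZIFL2 kept the call in 1 and 2 of 6 fits without 1 library and the rest in all 6. AT1G13448 was lower at -1.99, and it lies antisense to GT-1, so the same strand limit applies.

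Some annotated families, grouped after the values were seen, held more than 1 called gene. The D-type cyclins CYCD3;1 and CYCD3;2, which drive entry into the cell cycle, were higher among 5 tested (1.12, adjusted p 0.0402, and 1.17, adjusted p 0.0219), each kept in 1 of 6 fits without 1 library. CYCD3;2 had 463, 418 and 437 in gtl1-4, against 219, 167 and 200 in Col-0. Of 33 pectin lyase-like genes 5 were higher and 0 lower, with 20 positive and a median of 0.10. Over all tested genes 0.708% were higher. The scaffold genes ATARCA and RACK1C_AT were higher by 0.72 (adjusted p 0.00250) and 0.75 (adjusted p 0.0171), kept in 6 and 3 of 6 fits without 1 library. They were the only calls among 142 tested genes grouped with them by annotation, whose median was 0.02.

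Of 15 tested 3-ketoacyl-CoA synthase genes, a family grouped after the values were seen, 1 was higher (KCS16) and 1 lower (KCS6). CER1, an alkane-forming enzyme of cuticular wax that was also picked after its values were seen, had 839, 1386 and 1077 in gtl1-4, against 442, 770 and 616 in Col-0 (0.86, adjusted p 0.0432). KCS6, the main elongase of very-long-chain wax precursors, had 614, 883 and 733 in gtl1-4, against 1019, 1471 and 1290 in Col-0 (-0.76, adjusted p 0.0494). CER1 and KCS6 each kept the call in 2 of 6 fits without 1 library. KCS16, another elongase, was higher by 1.62 (adjusted p 0.000809) and kept it in all 6.

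Called genes lay on all 5 chromosomes, with 32.9% on chromosome 1, which carries 26.1% of tested genes. There were 12 pairs of called genes within 5 gene places of each other. In AT2G23890 and AT2G23900 the directions were opposite, at -1.36 for the first gene and with the second listed at 0 in Col-0. The cellulose synthase-like genes CSLG3 and CSLG1 also differed in sign, at 1.04 and -1.10.

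The promoters of the called genes were searched for the GT-3 box GGTAAA, on both strands of the 250 bases before each RefSeq gene start in TAIR10.1. It was found in 22.5% of 111 genes that were higher, 13.0% of 100 that were lower and 15.6% of 15947 tested genes with a promoter. The related GGTAAT, added later, was in 15.3% of the higher genes, 13.0% of the lower genes and 11.5% of tested genes. DFR, LDOX, GSTF12, ADC1, CHS, F3H, NIA1 and ESM1 had no GGTAAA in this window, nor did SDD1 or CCS52A1. The 25 higher genes with a match included ADC2, AT5MAT, AT1G76880, NRT1.1, CAD2, CAD3, AGL38, PHE1, AT2G23900 and AT1G33170. The windows of ADC2, AT1G76880 and AT5MAT follow with GGTAAA, or its reverse complement TTTACC, in capitals. They are shown as examples because these genes belong to the polyamine, trihelix and late anthocyanin lists. That of DFR, the largest anthocyanin difference, stands last for comparison.
ADC2 (chr4:16563045-16563294, minus strand): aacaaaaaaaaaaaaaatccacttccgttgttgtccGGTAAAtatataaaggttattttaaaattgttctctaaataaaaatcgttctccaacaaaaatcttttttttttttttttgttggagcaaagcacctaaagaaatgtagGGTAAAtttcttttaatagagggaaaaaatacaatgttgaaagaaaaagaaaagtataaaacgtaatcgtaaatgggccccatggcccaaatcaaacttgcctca
AT1G76880 (chr1:28865064-28865313, plus strand): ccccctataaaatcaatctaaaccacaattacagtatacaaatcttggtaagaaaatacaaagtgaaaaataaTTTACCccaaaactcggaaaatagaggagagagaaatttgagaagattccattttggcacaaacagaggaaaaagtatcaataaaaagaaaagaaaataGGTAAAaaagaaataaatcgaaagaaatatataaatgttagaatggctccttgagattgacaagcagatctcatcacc
AT5MAT (chr3:11400333-11400582, minus strand): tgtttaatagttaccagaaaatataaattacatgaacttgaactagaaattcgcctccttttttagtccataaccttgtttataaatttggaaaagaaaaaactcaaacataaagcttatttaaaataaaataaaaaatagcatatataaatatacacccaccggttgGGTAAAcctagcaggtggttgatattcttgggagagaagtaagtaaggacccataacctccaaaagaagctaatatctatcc
DFR (chr5:17166033-17166282, minus strand): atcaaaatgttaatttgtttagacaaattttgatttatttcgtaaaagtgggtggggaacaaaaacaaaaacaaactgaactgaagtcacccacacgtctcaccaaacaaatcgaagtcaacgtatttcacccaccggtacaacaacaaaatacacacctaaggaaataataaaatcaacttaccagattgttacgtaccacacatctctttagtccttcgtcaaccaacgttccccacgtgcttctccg

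The matches of ADC2 began 214 and 105 bases before the start, that of AT5MAT 82 bases before it, and those of AT1G76880 177 bases before it on the opposite strand and 78 bases before it on the gene's own strand. For the dehydration genes the ABA-response core ACGTGG was searched in the same way, after the values were seen. It was in 8.11% of higher, 18.0% of lower and 9.05% of tested genes. It can overlap the G-box CACGTG, and 4 higher genes, 9 lower genes and 670 tested genes held both. Among the 7 lower dehydration genes it was in RD29B, AFP3 and KIN2, and among 31 members without a call in 8. Those 3 windows are given to show spacing and strand, with ACGTGG or its reverse complement CCACGT in capitals.
RD29B (chr5:21236771-21237020, plus strand): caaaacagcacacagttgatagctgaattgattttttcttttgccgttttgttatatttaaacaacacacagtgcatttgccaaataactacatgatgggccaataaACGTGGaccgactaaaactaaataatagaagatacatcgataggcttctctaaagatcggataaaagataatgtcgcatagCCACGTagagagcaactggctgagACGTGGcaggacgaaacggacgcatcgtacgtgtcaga
AFP3 (chr3:11384146-11384395, minus strand): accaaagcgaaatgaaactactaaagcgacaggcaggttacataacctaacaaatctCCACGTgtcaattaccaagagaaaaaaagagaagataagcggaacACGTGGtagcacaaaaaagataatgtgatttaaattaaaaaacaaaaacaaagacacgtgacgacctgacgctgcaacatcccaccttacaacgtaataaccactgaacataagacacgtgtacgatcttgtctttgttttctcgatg
KIN2 (chr5:5211469-5211718, plus strand): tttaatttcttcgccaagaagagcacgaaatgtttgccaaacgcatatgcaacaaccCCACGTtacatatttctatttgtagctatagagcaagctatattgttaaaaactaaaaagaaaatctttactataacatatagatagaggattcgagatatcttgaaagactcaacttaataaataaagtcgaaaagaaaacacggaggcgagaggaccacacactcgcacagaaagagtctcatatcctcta

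In RD29B the matches began 143, 62 and 38 bases before the start, in AFP3 193 and 148 bases, and in KIN2 193 bases. GOLS2, HB7, ERD14 and NCED3 had none in this window. These are matches of letters in the reference sequence.

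Fewer genes were called between the genotypes under water deficit. In water-deficit expanding leaves 28 genes differed between gtl1-4 and Col-0 (0.169% of 16522), 21 higher (0.127%) and 7 lower (0.0424%). Of the higher genes 15 were also higher under good supply, which is 71.4% of the 21 and 12.8% of the 117. Of the lower genes 5 were shared, 71.4% of the 7 and 4.76% of the 105. These comparisons set different libraries against each other. Both come from the same fit of 12 libraries and share its estimate of each gene's spread, so the calls are not fully separate. Of the 117, 106 had a positive log2 fold change under deficit (median 0.43), and of the 105, 97 had a negative one (median -0.46). Over all tested genes 50.3% were positive there.

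The test of the difference itself called 0 genes with limma and 0 with limma-voom, with 948 at an unadjusted p under 0.05 and a lowest adjusted p of 0.181. DFR had 1779, 2261 and 1391 in gtl1-4 under deficit, against 1984, 838 and 1377 in Col-0, with overlapping groups (0.43, adjusted p 0.895). The difference of its well-watered and deficit genotype effects was 2.31 (adjusted p 0.68). LDOX, GSTF12 and AT5MAT stood at 0.54, 0.13 and 0.45 under deficit, and ADC2 and ADC1 at 0.23 and 0.35, none of them called. RD29B, GOLS2, HB7 and ERD14 stood at -0.76, -0.29, -0.58 and -0.20, also without a call.

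ESM1 was called under deficit as well, with 25656, 23063 and 20669 in gtl1-4, against 3529, 2648 and 3971 in Col-0 (2.79). CAD2, LTL1, MLP423 and BAM5 were higher there by 4.17, 1.89, 1.31 and 2.86. CRK18 and MRD1 were lower, at -1.63 and -3.96. NIA1 and AT1G76880 stood at 0.70 and 0.79 without a call.

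In emerging leaves gtl1-4 differed from Col-0 in 30 genes under good supply (0.162%), of which 18 were higher (0.0971%) and 12 lower (0.0648%). Under deficit there were 34 (0.183%), with 24 higher (0.13%) and 10 lower (0.054%). Of the 117 higher genes 4 were also higher in well-watered emerging leaves and 5 under deficit, and of the 105 lower genes 6 in each. Called in all 4 comparisons were AT1G75945, AT2G23900, AT5G35935 and ESM1, which were higher, and AT3G01345, AT3G30122, GTL1 and MRD1, which were lower. DFR stood at 0.18 and 0.07 in emerging leaves, and LTL1 at -0.05 and 0.00.

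**Figure D4:**
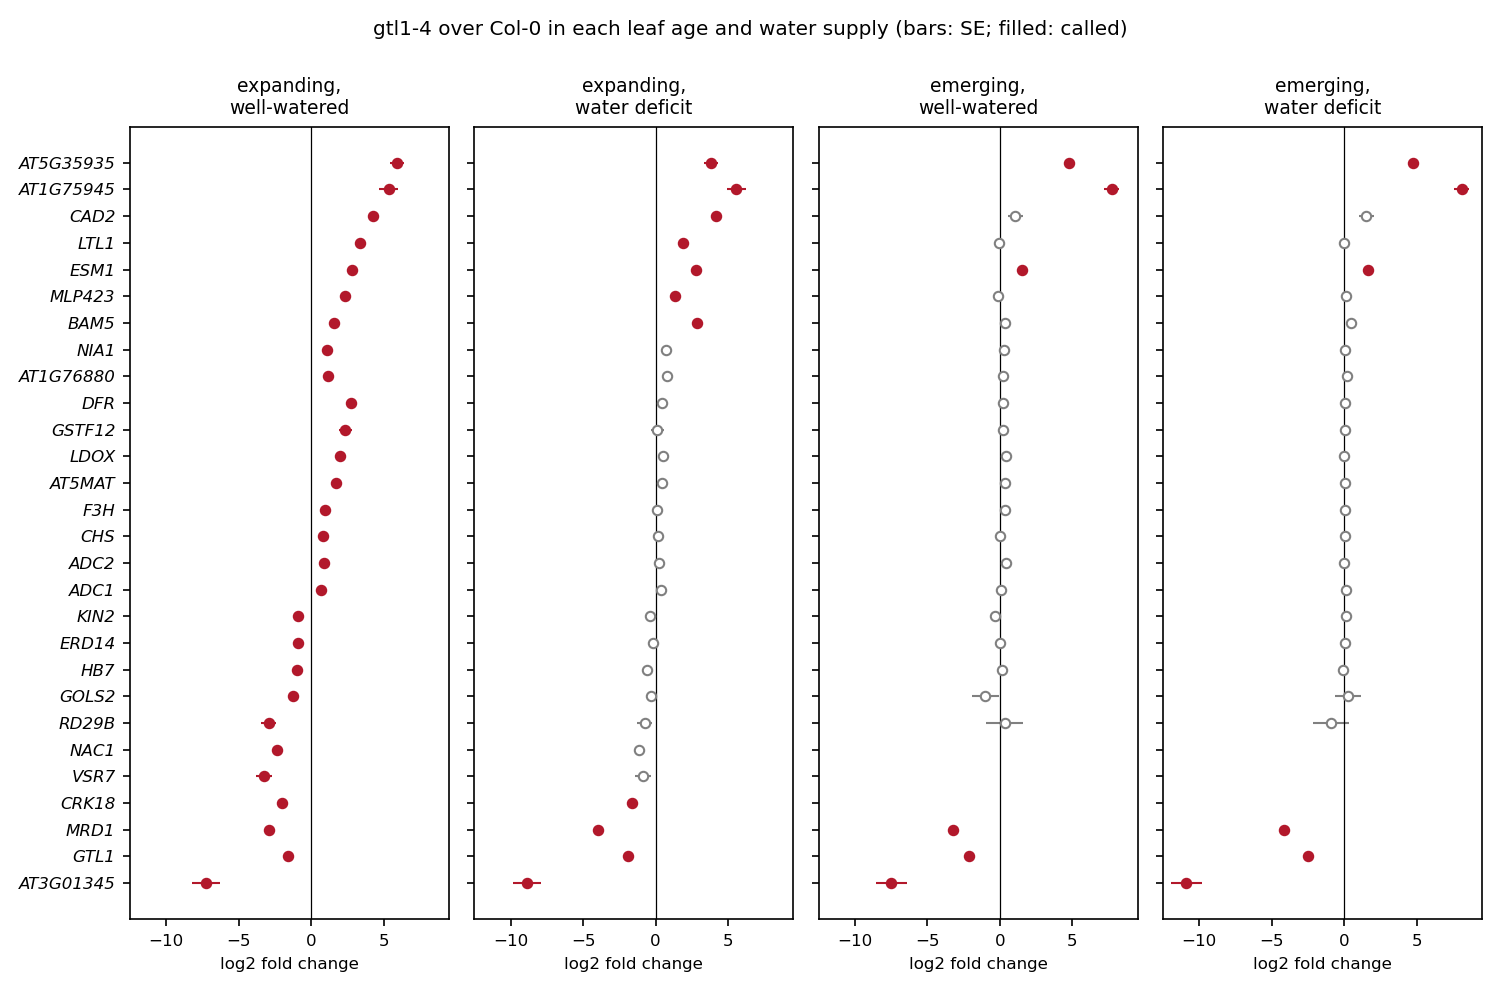
Log2 fold changes of gtl1-4 over Col-0, with SE bars, for selected genes in expanding and emerging leaves under good supply and water deficit. Filled points are called, and NAC1, VSR7 and CRK18 were not tested in emerging leaves. ESM1 and MRD1 are filled in all 4 panels, and DFR, ADC2 and GOLS2 are filled in the first panel and open in the others, a difference that did not pass its own test between water supplies.

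The genes that differed in gtl1-4 were set beside the water response of Col-0 emerging leaves, which shares no library with them. That response called 2439 of 18529 genes (13.2%), 1200 higher under deficit (6.48%) and 1239 lower (6.69%). Of the 117 higher genes 113 were tested there, and 27 were raised by deficit and 10 lowered. Of the 105 lower genes 93 were tested, with 26 raised and 6 lowered.

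All 12 late anthocyanin genes were raised by deficit there, with a median of 1.5, including DFR, LDOX, GSTF12 and AT5MAT. CHS, F3H, ADC2 and EXPA1 were raised too, while ADC1 was not called (-0.25). Of the 7 dehydration genes that were lower in gtl1-4, 6 were raised by deficit and 0 lowered, all but KIN2. The late anthocyanin calls were thus higher and the dehydration calls lower in gtl1-4, while those called under deficit in Col-0 emerging leaves were raised in both lists. In Col-0 expanding leaves DFR and RD29B rose under deficit by 4.69 and 5.55, a comparison that shares the well-watered Col-0 libraries.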

How the data were processed

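Values are the authors' deposited normalized counts of expanding leaves, a size-factor-scaled signal per gene. Per the submitters' processing notes, the tools included STAR, RSEM, Trimmomatic and Trim Galore, and the build was TAIR10. How the counts were normalized is not given in the labels. In each of the 24 libraries of both leaf ages, 96.5 to 97.9% of values below 2000 reads were whole multiples of a common step (tolerance 0.002). That step gave the depth. The other values were fractional, so no count model was the main test. The 12 libraries were fitted as 4 groups on log2(value + 1) with limma 3.58.1 (R 4.3.3, trended variance) and Benjamini-Hochberg adjustment, threshold 0.05. Fold changes understate low genes. A p-value reflects the spread between pools of plants. RefSeq TAIR10.1 matched 37051 identifiers and gave names and promoters. Members and the 32 lists (397 genes, 322 tested) were chosen with earlier results of these data known. Named were GTL1, SDD1, CCS52A1, a set of anthocyanin and polyamine genes, the 12 largest called rises and falls whose groups stay apart and whose mean reaches 20, genes called in all 4 genotype comparisons, and up to 4 called members, or else the lowest p, of each list. Others were named after their values were seen. Strand use is not stated, so antisense and near-identical genes are uncertain. The fit was tested on simulated data.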

Additional observations from a re-analysis of the deposited data

How the results depend on the processing

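Of 222 called genes 52 were kept in all 6 fits without 1 library, 27 higher and 25 lower. Leaving out 1 library gave 79 to 214 calls, 37 to 126 higher and 42 to 88 lower, and 0 to 2 for the difference between water supplies. The counts were 104, 117 and 79 without gtl1-4 replicates 1, 2 and 3, and 126 and 114 without Col-0 replicates 1 and 3. A fit of only the 2 groups gave 81 (40 higher, 41 lower), and one without the variance trend 123 (67 and 56). Leaving out Col-0 well-watered replicate 3 with water-deficit replicate 2 gave 245. The causes of these differences were not tested, and the reduced fits also have fewer samples. GTL1 kept its call under all alternatives. Of 42 other called genes named by the stated rules 0 reversed and 20 kept direction and call in all 19 alternatives. Further genes discussed in the text, among them those named after their values were seen, are not in this count. The uncalled MYB75 became -0.18 and CCS52A1 0.029 without Col-0 replicate 3, alone or with the other library, and SPDS2 became 0.011 and 0.012 without Col-0 replicate 1 or 2. Over the fits without 1 library these genes ran from -0.18 to 0.39 (MYB75), -0.52 to 0.029 (CCS52A1) and -0.11 to 0.012 (SPDS2). The medians of the trihelix, indole glucosinolate and iron lists also changed sign without Col-0 replicate 3.

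Deviations from the group means correlated at -0.07 to 0.10 between same-numbered libraries of the 2 groups (3 pairs). Between other-numbered libraries they correlated at -0.14 to 0.05 (6 pairs). These ranges are low and overlap, and the numbers were not taken to pair the libraries. With a replicate block 170 genes were called, 88 higher and 82 lower. Depth of 4.88 to 10.0 M nuclear counts limits genes near the filter.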
